A study of Mus musculus with 48 samples.

Results

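The genes described here are 34 genes of DNA replication, mitosis and the control of both, read out of the 55414 genes of a count table from mouse liver. They were taken as a fixed list of symbols, each matched to its Ensembl identifier, and all 34 passed the filter on low counts. By role, the list holds 4 genes of entry into S phase (Ccnd1, Ccne1, Ccne2 and E2f1), 10 genes of origin licensing and the replication fork (Cdc6, Cdt1, Cdc45, Mcm2 to Mcm7 and Pcna) and 2 genes of deoxynucleotide supply (Rrm2 and Tyms). It also holds 5 genes of the later cyclins with their kinase and transcription factor (Cdk1, Ccna2, Ccnb1, Ccnb2 and Foxm1), 11 genes of chromosome structure and mitosis (Mki67, Top2a, Aurka, Aurkb, Birc5, Bub1, Bub1b, Plk1, Cdc20, Kif11 and Kif20a) and 2 inhibitors of cyclin-dependent kinases (Cdkn1a and Cdkn2c).

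Livers came from 48 mice of the FCG model (core genotypes of sex chromosomes and gonads). Their Y chromosome lacks Sry, the gene that starts testis development, and testes form only in mice with an autosomal Sry transgene, whether XX or XY. Each of 8 groups held 6 mice, with 1 library per mouse. XX Ov mice (genotype XX) and XY Ov mice (XY-) carried ovaries, and XX Te mice (XX;SryTg) and XY Te mice (XY-;SryTg) carried testes because of the Sry transgene. Every mouse came from a C57BL/6 colony and received a high-fat diet (HFD). In the intact groups the gonads stayed in place and the labels give 11 weeks of diet, whereas gonadectomized (GDX) mice lost their gonads at 75 days of age and the labels give 15 weeks of diet. The study's methods state other durations for both cohorts, so the length of the diet is uncertain.

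A cell that divides copies its DNA in S phase and separates the copies in mitosis. Cyclins D and E with their kinases release E2F factors, which switch on genes of licensing and replication. A later program driven by B-MYB and FOXM1 switches on the genes of mitosis, whose promoters commonly hold CCAAT boxes bound by NF-Y and CHR elements (cell cycle genes homology regions). Adult hepatocytes rarely divide, although they re-enter the cycle after tissue loss and often become polyploid, while blood-derived cells, resident macrophages and endothelial cells of the liver can also divide.

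Each mouse had 13071874 to 20045141 reads on genes (median 16577748), and 3 reads, used as the floor of detection, equalled 0.15 to 0.23 CPM, the usual count of a gene scaled to the reads on genes of its library, a limit that covers counting error only. Xist was at 123 CPM or more in the XX libraries and at 8.36 CPM or less in the XY libraries. The Y-linked gene Ddx3y was at most 3.82 CPM in XX and at least 46 CPM in XY libraries, so every library went with the sex chromosomes of its label. The 3.82 CPM was 62 reads in 1 XX Te Intact library, where XX Ov Intact libraries had at most 7. These genes do not check gonad type or GDX status. The hepatocyte genes Alb, Ttr, Apoa1, Apoa2, Apob, Fgb and Serpina1c were detected in every library. Reads outside genes made up 3.47% to 6.2% of the reads in intact libraries and 8.52% to 11.3% in GDX libraries, so in the GDX effects below the loss of gonads, the weeks of diet and the library make-up cannot be told apart. In GDX mice this share was 8.52% to 10.1% in XX and 9.98% to 11.3% in XY libraries. In bulk liver, fewer cells of a type and less RNA per cell cannot be told apart.

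Most members were expressed at low levels, so single values carry wide counting error. The median over 48 mice was at most 15.5 reads for Cdc6, Ccnb1, Ccnb2, Foxm1, Aurkb, Bub1, Plk1 and Cdc20, and the lowest mouse had 0 reads of Aurkb, Bub1 and Cdc20. Deeper counts were available for Mki67 (17 to 647 reads, median 105), Pcna (261 to 1200, median 449.5) and Ccnd1 (181 to 1792, median 578.5). With at least 10 reads required in every mouse, 21 of the 34 members would remain.

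Promoter sequences in the RefSeq table of build GRCm38.p6, which is not the build used for the counts, were found for 27 members in 30 windows of 300 bases. CCAAT on either strand was present in 21 of the 30 windows (70%) and in 37.4% of all 32851 windows in the table. A CHR element was present in 43.3% of the member windows and 19.2% of all windows. It was searched as TTTGAA and with a central C as TTCGAA. An E2F-type site was present in 36.7% and 9.07%. The spellings searched, on either strand, were TTGGCGC, its neighbour TTGGCGG and also TTCCCGC. An E2F-type site that opens with TTGG can overlap a CCAAT box on the other strand, and a match of letters is not evidence of binding. The 150 bases before the start are shown for the 4 members in the table with the smallest adjusted p between XX and XY GDX mice, all genes of mitosis, with matches to these motifs on either strand in capitals. They lie at chr7:135716380-135716529 on the minus strand (Mki67), chr19:37376232-37376381 on the plus strand (Kif11), chr11:99024190-99024339 on the minus strand (Top2a) and chr2:118598061-118598210 on the plus strand (Bub1b).
Mki67: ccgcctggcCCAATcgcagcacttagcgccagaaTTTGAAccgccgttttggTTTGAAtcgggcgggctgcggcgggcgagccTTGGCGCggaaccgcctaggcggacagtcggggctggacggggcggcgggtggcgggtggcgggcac
Kif11: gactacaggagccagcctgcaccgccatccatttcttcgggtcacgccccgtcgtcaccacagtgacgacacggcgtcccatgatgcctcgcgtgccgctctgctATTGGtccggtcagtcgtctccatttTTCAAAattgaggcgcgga
Top2a: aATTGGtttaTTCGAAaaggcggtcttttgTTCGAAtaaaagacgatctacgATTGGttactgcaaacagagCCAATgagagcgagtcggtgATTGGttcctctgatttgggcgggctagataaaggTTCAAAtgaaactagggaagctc
Bub1b: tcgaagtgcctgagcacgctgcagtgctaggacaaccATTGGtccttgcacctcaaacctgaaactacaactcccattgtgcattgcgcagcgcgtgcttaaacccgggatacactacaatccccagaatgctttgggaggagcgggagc

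The Mki67 sequence holds 1 CCAAT, 2 CHR elements and 1 E2F-type site, and the Kif11 sequence 1 CCAAT and 1 CHR element. The Top2a sequence holds 4 CCAAT boxes and 3 CHR elements, whereas the Bub1b sequence holds 1 CCAAT and neither of the other motifs.

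To ask whether the sex chromosomes were associated with proliferation genes when no gonads were present, XX GDX and XY GDX livers were compared (12 mice each). In total, 20 of the 34 members were higher in XY GDX livers and none was higher in XX GDX livers. Among all 15414 genes tested, 34.3% were called, with 14.8% higher in XY GDX and 19.5% higher in XX GDX mice (edgeR, quasi-likelihood test, Benjamini-Hochberg adjusted p under 0.05). The median log2 fold change of XY over XX was 0.65 over the members and -0.08 over all genes tested. The 20 members kept their call in each of the 48 fits that left out 1 mouse and under each of the 8 other settings of the fit in which they were tested.

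**Figure D1:**
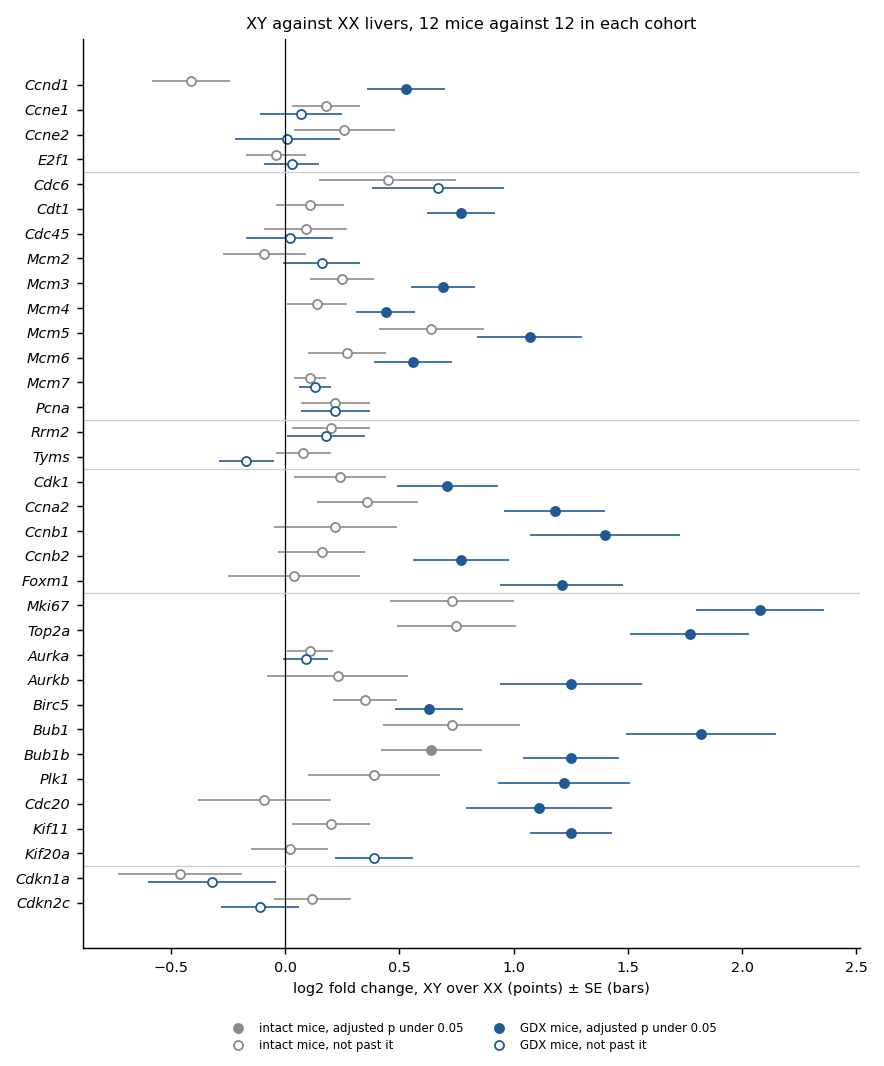
Log2 fold change of XY over XX livers (points, x axis) with SE (bars) for the 34 genes (y axis, grouped by role) in intact mice (gray) and GDX mice (blue), 12 mice against 12, with filled points past an adjusted p of 0.05. In GDX mice 20 genes lie to the right with filled points, from 0.44 for Mcm4 to 2.08 for Mki67, whereas in intact mice only Bub1b is filled.

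The genes of mitosis showed the largest differences, with 9 of 11 called. Mki67 (ENSMUSG00000031004), which encodes the Ki-67 protein that coats mitotic chromosomes and is used as a marker of cycling cells, ranged from 1.62 to 9 CPM in XX GDX mice (median 3.9) and from 10.3 to 32.9 CPM in XY GDX mice (median 18.9). Every XY GDX mouse was above every XX GDX mouse. The fitted difference was 2.08 ± 0.28 on the log2 scale (log2 fold change ± SE, here and in all such values), or 4.23-fold, and the adjusted p in edgeR was 4.15e-08. Top2a, the topoisomerase that untangles sister chromosomes, ranged from 0.958 to 5.54 CPM in XX GDX mice (median 2.2) and from 3.37 to 14.3 CPM in XY GDX mice (median 10.3), so that the groups overlapped although their medians were far apart. It was 3.4-fold higher in XY GDX livers (log2 1.77 ± 0.26, adjusted p 5.75e-07).

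The spindle checkpoint kinases followed the same direction. Bub1 lay between 0 and 0.615 CPM in XX GDX mice (median 0.162, about the floor of detection) and between 0.426 and 1.66 CPM in XY GDX mice (median 0.686), a 3.54-fold difference. It had 0 to 11 reads in XX GDX and 6 to 27 reads in XY GDX mice, so this fold rests on few reads. Without XX Te GDX mouse 3, which had the highest XX GDX level, the log2 difference of XX from XY was -2.43 in place of -1.82. Bub1b ranged from 0.359 to 1.91 CPM in XX GDX mice (median 1.03) and from 1.57 to 4.64 CPM in XY GDX mice (median 3.23), and the ranges overlapped (2.38-fold, log2 1.25 ± 0.21, adjusted p 3.99e-06).

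Kif11, the kinesin that pushes spindle poles apart, ranged from 0.861 to 2.46 CPM in XX GDX mice (median 1.26) and from 2.03 to 6.37 CPM in XY GDX mice (median 3.72). The ranges overlapped between 2.03 and 2.46 CPM, and the difference was 2.38-fold (log2 1.25 ± 0.18, adjusted p 1.52e-07). Aurkb, the kinase of the chromosomal passenger complex, and its partner Birc5 (survivin) were 2.38-fold and 1.54-fold higher in XY GDX livers. Birc5 lay at 1.29 to 1.81 CPM in XX GDX and 1.91 to 3.47 CPM in XY GDX mice with no overlap. Plk1, a kinase of mitotic entry, and Cdc20, an activator of the anaphase-promoting complex, were 2.33-fold and 2.16-fold higher in XY GDX livers. In XX GDX mice Aurkb had 0 to 17 reads, Plk1 3 to 9 and Cdc20 0 to 18, so their folds also rest on few reads. The 2 genes of mitosis that did not pass were Aurka, a centrosomal kinase (log2 0.09 ± 0.10, XY over XX), and Kif20a, a kinesin of cytokinesis (0.39 ± 0.17, adjusted p 0.0715).

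All 5 genes of the later cyclins were higher in XY GDX livers. Ccna2, the cyclin of S and G2 phase, lay at 0.458 to 2.24 CPM in XX GDX mice (median 0.814) and 1.39 to 4.12 CPM in XY GDX mice (median 2.39), with an overlap between 1.39 and 2.24 CPM (2.27-fold, log2 1.18 ± 0.22, adjusted p 3.24e-05). Foxm1, the transcription factor of the mitotic program, was 2.31-fold higher (adjusted p 0.00047). The mitotic cyclins Ccnb1 and Ccnb2 were 2.64-fold and 1.7-fold higher, and their kinase Cdk1 was 1.64-fold higher. Ccnb1 had 1 to 7 reads in XX GDX and 3 to 24 reads in XY GDX mice, so its fold rests on few reads.

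**Figure D2:**
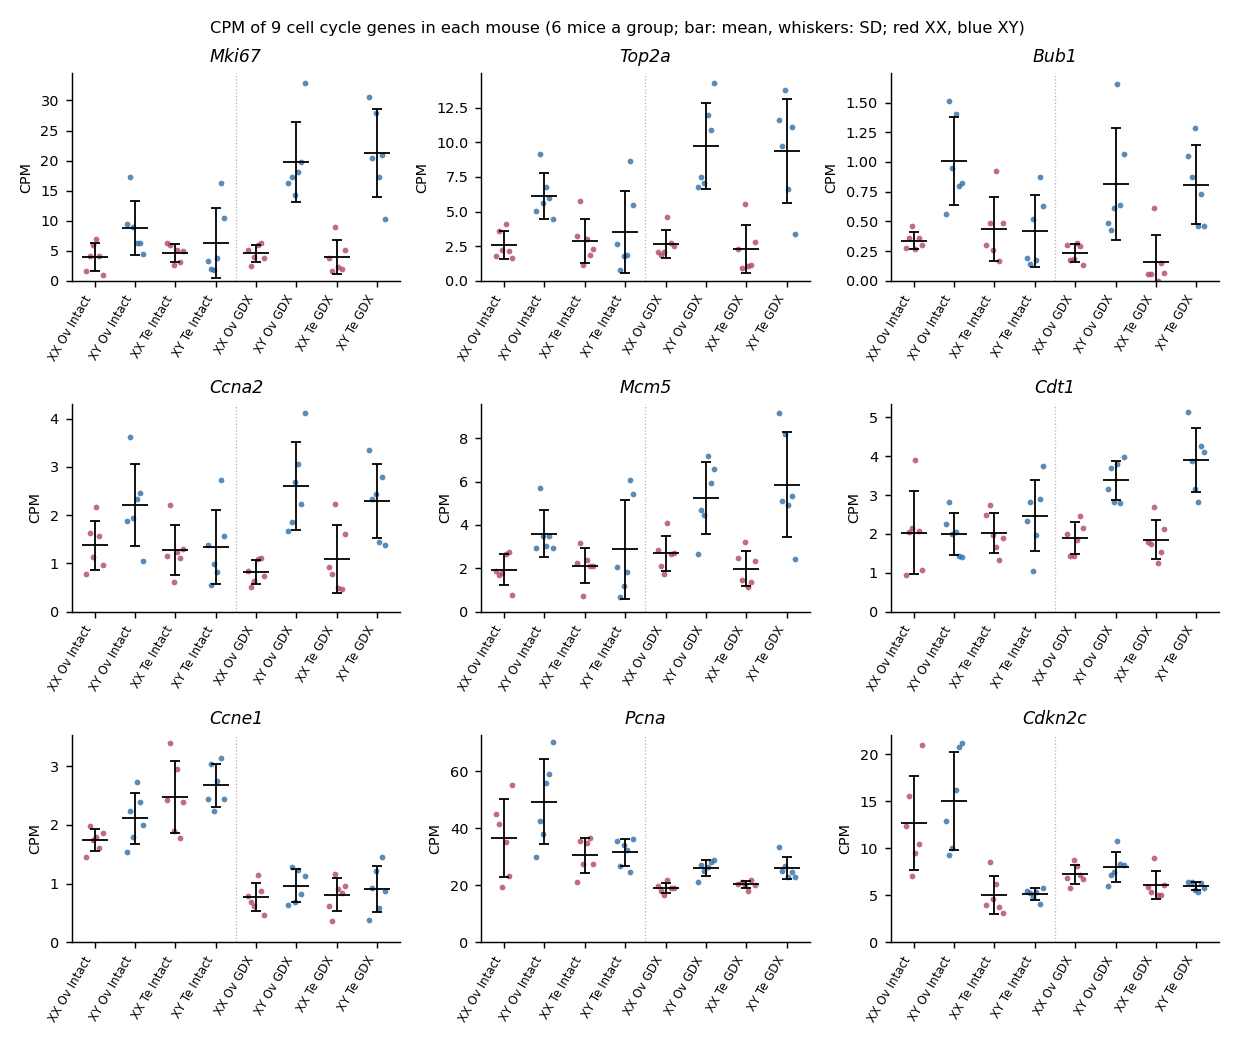
CPM (y axis, linear from 0) of 9 of the genes in each mouse (points), with the mean (bar) and SD (whiskers) of each group of 6, in the 4 intact groups left of the dotted line and the 4 GDX groups right of it. In Mki67 and Cdt1 each XY GDX point lies above each XX GDX point, and in Ccne1 each GDX point lies below the intact points of the same gonad type.

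Of the licensing and fork genes, 5 of 10 were higher in XY GDX livers. Mcm5, a subunit of the MCM helicase that unwinds DNA, ranged from 1.11 to 4.08 CPM in XX GDX mice (median 2.39) and from 2.44 to 9.16 CPM in XY GDX mice (median 5.24). The groups overlapped, and the difference was 2.1-fold (log2 1.07 ± 0.23, adjusted p 0.000192). Cdt1, which loads the helicase onto origins, lay at 1.25 to 2.68 CPM in XX GDX and 2.8 to 5.14 CPM in XY GDX mice, with every XY GDX mouse above every XX GDX mouse (1.71-fold, log2 0.77 ± 0.15, adjusted p 4.53e-05). The helicase subunits Mcm3, Mcm6 and Mcm4 were 1.61-fold, 1.48-fold and 1.35-fold higher in XY GDX livers.

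Not all helicase subunits were called. Mcm2 (log2 0.16 ± 0.17, XY over XX) and Mcm7 (0.13 ± 0.07) did not pass. Pcna, the sliding clamp of the polymerases, did not pass either (0.22 ± 0.15), nor did Cdc6 (0.67 ± 0.29, adjusted p 0.0712) or Cdc45 (0.02 ± 0.19). Among the genes of S-phase entry Ccnd1 alone was called. This D-type cyclin lay at 15.9 to 59.5 CPM in XX GDX mice (median 33.6) and 29.3 to 79.9 CPM in XY GDX mice (median 52.6), with wide overlap (1.45-fold, adjusted p 0.014). Ccne1, Ccne2, E2f1, Rrm2, Tyms, Cdkn1a and Cdkn2c had adjusted p-values between 0.294 and 0.972. Cdkn1a (p21), an inhibitor induced by p53, lay at 2.21 to 14.6 CPM in XX GDX and 3.27 to 7.56 CPM in XY GDX mice. Complete separation of XX GDX from XY GDX mice was seen for 3 members, Mki67, Cdt1 and Birc5, and for 6.94% of all genes tested in the same direction. In the other direction it was seen for no member and for 0.285% of all genes. These ranges use CPM without the TMM scaling factors given below, which were larger in XY GDX libraries, so they lean toward XY GDX mice.

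The summed level of the 11 genes of mitosis shows the size of the difference in single mice. It ranged from 9.46 to 27.3 CPM in XX GDX mice (median 15.4) and from 25.8 to 72.5 CPM in XY GDX mice (median 47.9). The lowest XY GDX mouse lay below the highest XX GDX mouse, and all other XY GDX mice lay above every XX GDX mouse. In the XX Intact and XY Intact groups the medians were 17.7 and 28.8 CPM (13 to 29.5 and 12 to 51.9), with broad overlap. Because the scaling factors differed (mean log2 TMM factor 0.017 in XX GDX and 0.198 in XY GDX libraries), ratios of CPM are larger than the fitted fold changes of the same genes. With library totals in place of TMM the median log2 fold change of all genes (XX over XY) moved from 0.08 to -0.097, and 25 members were called, all higher in XY GDX mice. Of 15414 genes, 3411 were then higher in XY GDX and 787 in XX GDX mice.

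The difference appeared in both gonad types. Among mice born with ovaries, 13 members were higher in XY GDX and none in XX GDX (19.1% of all genes were called in either direction, 10.4% higher in XY). Among mice born with testes, 15 members were higher in XY GDX and none in XX GDX (19.4% of all genes, 10.9% higher in XY). Mki67 differed by 1.94 ± 0.39 in the first pair of groups and by 2.23 ± 0.39 in the second. Every XY mouse lay above every XX mouse for 9 members in Ov GDX mice (13.5% of all genes) and for 5 in Te GDX mice (11.1%). The test of whether the 2 differences were unequal called 0 of 34 members and 0 of 15414 genes (edgeR's quasi-likelihood test, with 0 members and 165 genes at an unadjusted p under 0.05, and 0 genes by DESeq2). With 1 mouse left out, the call of Ccnb2 in Ov GDX mice was lost in 25 of the 48 fits. In Te GDX mice those of Ccna2 and Ccnb1 were lost in 8 fits each, Foxm1 in 6, Mcm6 in 5 and Cdc20 in 4. Each other call was lost in 3 fits or fewer, and those of Mki67, Top2a, Bub1, Bub1b and Kif11 in none. These within-gonad comparisons were chosen after seeing the data.

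**Figure D3:**
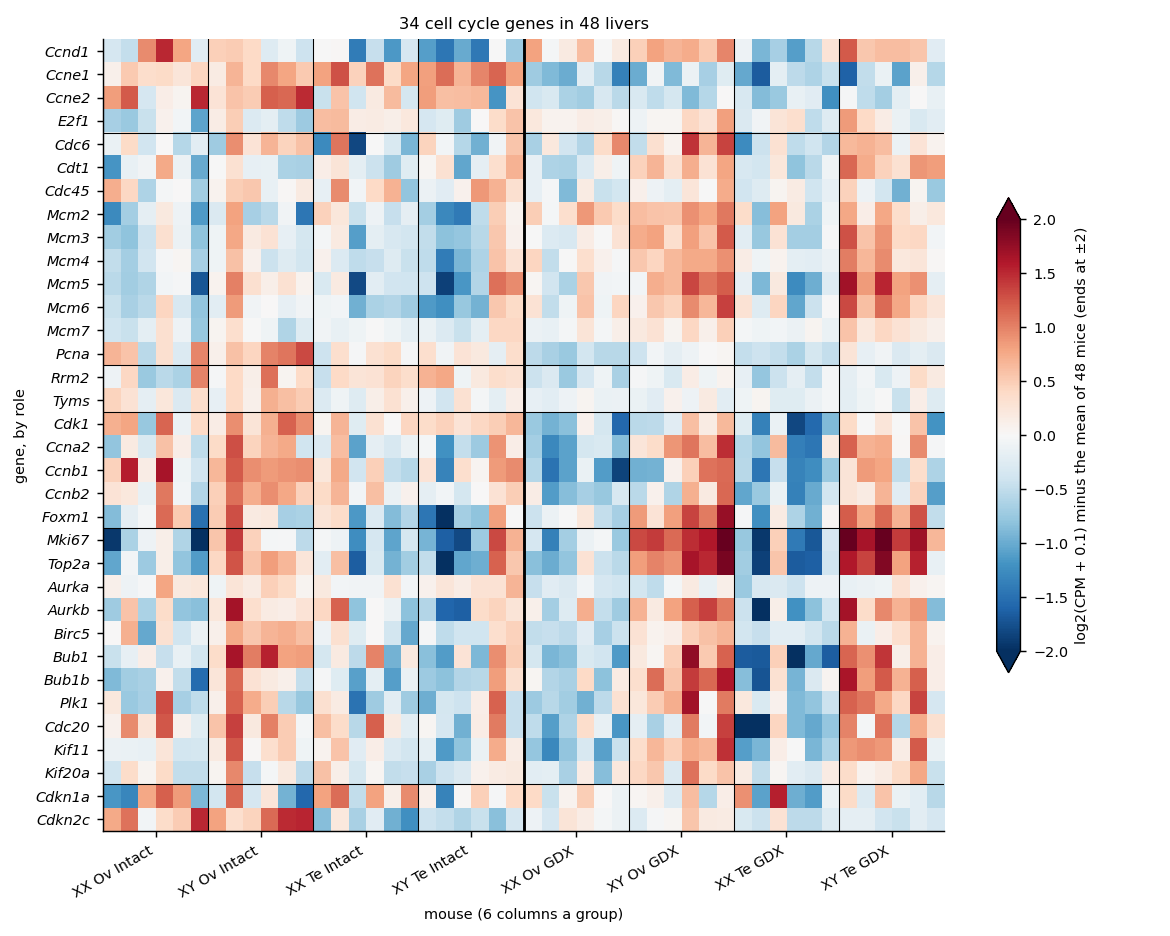
Color shows log2(CPM + 0.1) minus the mean over 48 mice (red above, blue below, ends at ±2) for the 34 genes (rows, by role) in each mouse (columns, 6 per group). The XY Ov GDX and XY Te GDX columns are red across most rows of the later cyclins and mitosis, the XX GDX columns are mostly blue there, and intact columns are red in the Ccne1 row.

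Markers of white blood cells and resident macrophages were also higher in XY GDX livers. All 7 tested neutrophil markers (of 8 listed), 7 of 8 Kupffer cell and macrophage markers, 5 of 6 tested granulocyte precursor markers (of 8 listed), 6 of 9 lymphocyte markers and 5 of 7 erythroid markers were higher in XY GDX mice, while the erythroid gene Alas2 was higher in XX GDX mice (log2 0.46 ± 0.12). The summed Kupffer cell and macrophage markers ranged from 155 to 448 CPM in XX GDX mice and from 434 to 1700 CPM in XY GDX mice, and the summed neutrophil markers from 2.69 to 8.69 and from 16.7 to 149 CPM. The neutrophil sum was led by 1 gene, Csf3r (medians 3.33 and 26.3 CPM), whereas S100a8 had medians of 0.349 and 5.54 CPM. The summed granulocyte precursor markers, which include Mpo and Elane, ranged from 0.0606 to 4.37 and from 0.29 to 56.8 CPM, and Ly6g, a defining neutrophil gene, was at 0 in 34 of the 48 mice. Among other lists, 2 of 7 hepatocyte, 2 of 4 tested cholangiocyte and 1 of 7 stellate cell markers were higher in XX GDX mice and none in XY GDX mice. Of 6 sinusoidal endothelial markers 1 was called higher in XY GDX mice (Pecam1, 3.66-fold). The sum of these 6 was 236 ± 60.9 CPM in XX GDX and 363 ± 75.8 CPM in XY GDX mice (mean ± SD, n = 12). Lipid-associated macrophage markers went both ways, with 3 of 5 higher in XX GDX mice and Itgax 19.6-fold higher in XY GDX mice (adjusted p 1.92e-12), and their sum was 89.2 ± 58.3 CPM in XX GDX and 130 ± 31.2 CPM in XY GDX mice (mean ± SD, n = 12). The part of these cells, and of the share of reads outside genes, in the difference of the cell cycle genes was not tested.

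In intact mice the same comparison called 1 of 34 members, against 10.7% of all genes tested (6.42% higher in XY). This was Bub1b, at 0.421 to 1.52 CPM in XX Intact mice (median 0.931) and 0.76 to 3.22 CPM in XY Intact mice (median 1.58). The ranges overlapped, and the call (1.55-fold higher in XY, adjusted p 0.0477) was lost in 25 of the 48 fits that left out 1 mouse. Mki67 lay at 1.02 to 7.01 CPM in XX Intact mice (median 4.61) and 1.77 to 17.2 CPM in XY Intact mice (median 6.33), which did not pass (log2 0.73 ± 0.27, XY over XX, adjusted p 0.0786), and Top2a did not pass either (0.75 ± 0.26, adjusted p 0.0599). In all, 7 members had an unadjusted p under 0.05 in edgeR. At least the 10.7% of all genes called above also pass that threshold, so this count is no result about the members. The median over the members was 0.2 (XY over XX) against -0.02 over all genes. Myeloid markers differed in intact mice as well, with 6 of 7 tested neutrophil and 5 of 8 Kupffer cell and macrophage markers higher in XY Intact mice.

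The intact comparison was also made within each gonad type. In Ov Intact mice 2 members, Top2a and Bub1, were higher in XY (7.79% of all genes called, 5.79% higher in XY), and every XY mouse was above every XX mouse for Mcm5, Top2a and Bub1 (3.74% of all genes). Leaving out single mice ended the call of Top2a in 14 fits and that of Bub1 without XY Ov Intact mouse 2 or mouse 4. In Te Intact mice none of 34 members was called (edgeR's quasi-likelihood test, 2.1% of all genes, with 1 member at an unadjusted p under 0.05 and 0 by DESeq2). Whether the Ov and Te differences were unequal was tested, and 0 members and 0 genes passed (2 members and 989 genes at an unadjusted p under 0.05, and 0 members and 2 genes by DESeq2).

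The XX-to-XY difference was set against GDX status in an interaction test, which called 2 members, Kif11 and Ccnd1, and 2.12% of all genes. For Kif11 the log2 difference of XY over XX was larger in GDX than in intact mice by 1.05 ± 0.25 (adjusted p 0.0181). In intact mice Kif11 lay at 1.71 to 3.39 CPM in XX and 0.968 to 5.45 CPM in XY, with one range inside the other. For Ccnd1 the corresponding value was 0.94 ± 0.25 (adjusted p 0.0313), with 12.9 to 97.4 CPM in XX Intact and 12.5 to 48.7 CPM in XY Intact mice. Its difference in GDX mice was smaller than this (0.53, XY over XX). The fitted difference in intact mice thus ran the other way, with XX higher, and was not called. The interaction call of Ccnd1 was lost in 8 of the 48 fits that left out 1 mouse. Mki67 narrowly missed the threshold (1.35 ± 0.39, adjusted p 0.0503), and the S/G2/M and mitosis genes had median values of 0.82 and 1.02 against -0.04 over all genes. The 18 other members called in GDX mice are therefore not shown to differ more in GDX than in intact mice.

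Over intact and GDX mice together, 19 members were higher in XY and none in XX livers (36.7% of all genes called, with 14.8% higher in XY). These were Cdc6, Cdt1, Mcm3, Mcm4, Mcm5, Mcm6, all 5 later cyclin genes and 8 genes of mitosis. Mki67 (log2 1.41 ± 0.19, XY over XX), Bub1 (1.28 ± 0.23) and Top2a (1.26 ± 0.19) again led the list, and no member separated all 24 XX from all 24 XY mice, against 0.0389% of all genes with every XY mouse above every XX mouse.

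The effect of GDX was then examined within each gonad type, with the limit that diet length and library make-up changed with it. After ovariectomy 3 members rose and 12 fell (69.4% of all genes called, 36% rose and 33.4% fell), and after castration 3 rose and 11 fell (63.3% of all genes, 33.4% rose and 29.9% fell). The medians over the members were -0.22 and -0.05, against 0.06 and 0.07 over all genes. In both comparisons 9 members fell, namely Ccne1, Ccne2, Pcna, Rrm2, Tyms, Cdk1, Ccnb1, Ccnb2 and Aurka, and so did 25.3% of all genes tested, a similar share. In both, a smaller share of the members than of all genes was called.

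Ccne1 (cyclin E1), which drives entry into S phase with CDK2, had the clearest pattern. It lay at 1.45 to 2.73 CPM in Ov Intact mice (median 1.83) and 0.468 to 1.28 CPM in Ov GDX mice (median 0.803), and at 1.78 to 3.39 CPM in Te Intact mice (median 2.45) and 0.359 to 1.46 CPM in Te GDX mice (median 0.887). Every intact mouse was above every GDX mouse of the same gonad type, which was so for 2.98% of all genes with ovaries and 1.27% with testes. Ccne1 fell by 1.38 ± 0.17 after ovariectomy and by 1.78 ± 0.16 after castration (adjusted p 2.13e-09 and 9.33e-12). Ccne2, its close relative, fell by 1.57 ± 0.23 and 0.89 ± 0.23, and with 1 surrogate variable added the value after ovariectomy was -0.55.

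Pcna lay at 19.3 to 70.3 CPM in Ov Intact mice (median 42.1) and 16.7 to 29 CPM in Ov GDX mice (median 21.4), and it fell by 1.20 ± 0.15 after ovariectomy (-0.53 with 1 surrogate variable added) and by 0.65 ± 0.15 after castration. The ranges overlapped with either gonad. The genes of deoxynucleotide supply also fell. Rrm2, the regulated subunit of ribonucleotide reductase, fell by 0.70 in both, and Tyms, thymidylate synthase, by 0.61 and 0.32. With 1 surrogate variable added the ovariectomy calls of both were lost (-0.11 and -0.19), and that of Tyms after castration was lost there and with library totals (-0.1 in both). Ccnb1 fell by 1.53 ± 0.29 and 0.86 ± 0.31, Cdk1 by 1.15 ± 0.21 and 0.97 ± 0.21, and Aurka by 0.65 ± 0.10 and 0.53 ± 0.10. The call of Ccnb1 after castration was lost with library totals.

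The members that rose were mostly helicase subunits. Mcm4 rose by 0.37 ± 0.13 after ovariectomy and 0.35 ± 0.13 after castration, Mcm2 by 0.76 ± 0.18 after ovariectomy and Mcm6 by 0.58 ± 0.17 after castration. Ccnd1 rose by 0.56 ± 0.17 after castration. E2f1 rose by 0.29 ± 0.12 after ovariectomy and fell by 0.30 ± 0.12 after castration, and these 2 effects differed (-0.59 ± 0.18, adjusted p 0.0348, in a test that called 5.6% of all genes), although each of the 3 calls was fragile. The rise was lost in 10 of the 48 fits that left out 1 mouse and under 2 other settings, the fall in 9 fits and under 4 settings, and the difference in 10 fits and under 2 settings. With library totals in place of TMM, which moved the median of all genes to 0.269 and 0.268, 8 members rose and 11 fell after ovariectomy and 7 rose and 8 fell after castration. Of all 15414 genes, 7362 then rose and 3768 fell after ovariectomy, and 7306 rose and 3208 fell after castration. With 1 surrogate variable added, none rose and 15 fell after ovariectomy, Rrm2 and Tyms not among them, and 2 rose and 12 fell after castration. Among all genes with this variable, 3088 rose and 3750 fell after ovariectomy, and 4178 rose and 4270 fell after castration. The rises of Mcm2, Mcm4 and Ccnd1 were lost there.

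**Figure D4:**
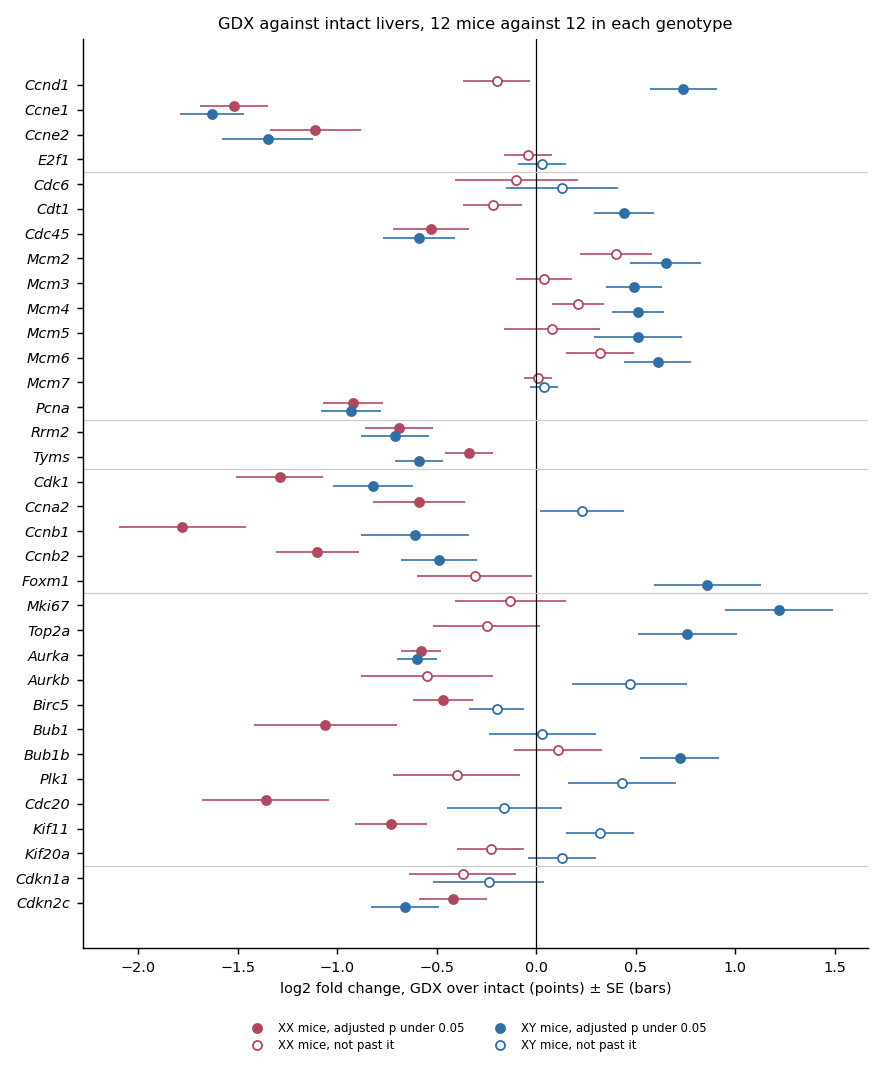
Log2 fold change of GDX over intact livers (points, x axis) with SE (bars) for the 34 genes (y axis, grouped by role) in XX mice (red) and XY mice (blue), 12 mice against 12, with filled points past an adjusted p of 0.05. Ccne1, Ccne2, Pcna and the deoxynucleotide genes fell in both genotypes, whereas Mki67 rose by 1.22 in XY mice and was at -0.13 in XX mice, where it did not pass.

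The same mice were then split by sex chromosomes, in a comparison chosen after seeing the data that shares its mice with those above. From intact to GDX, no member rose and 16 fell in XX mice (62% of all genes called, 32% rose and 30% fell), while 11 rose and 11 fell in XY mice (70.9% of all genes called, 37.8% rose and 33.2% fell). The share of members called in XY mice was no larger than that of all genes, for rises and for falls alike. In XY mice the members that rose were Mki67 (1.22 ± 0.27), Foxm1 (0.86), Top2a (0.76), Ccnd1 (0.74), Bub1b (0.72), Mcm2 to Mcm6 (0.49 to 0.65) and Cdt1 (0.44). Mki67 lay at 1.77 to 17.2 CPM in XY Intact mice and 10.3 to 32.9 CPM in XY GDX mice, with overlap. The count of rises depended on the model. With 1 surrogate variable added none rose and 8 fell in XY mice, beside 3445 rises and 4013 falls among all 15414 genes. With library totals in place of TMM 17 rose and 8 fell, beside 8509 rises and 3318 falls among all genes. In XX mice DESeq2 called 1 rise, beside 4944 among all genes. Library totals gave 1 rise and 11 falls there, beside 6039 and 3662 among all genes.

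Ccnb1 fell in both genotypes. It lay at 0.306 to 1.79 CPM in XX Intact mice (median 0.586) and 0.0669 to 0.446 CPM in XX GDX mice (median 0.182, about the floor of detection), and it fell by 1.78 ± 0.32 in XX mice (adjusted p 9.49e-06) and by 0.61 ± 0.27 in XY mice, where the call was lost in 16 of the 48 fits that left out 1 mouse and under 3 of 4 other settings. The mitosis genes Cdc20, Bub1, Kif11 and Birc5 fell by 1.36 ± 0.32, 1.06 ± 0.36, 0.73 ± 0.18 and 0.47 ± 0.15 in XX mice, and the cyclin Ccna2 by 0.59 ± 0.23. Library totals ended the calls of Birc5 and Ccna2, 1 surrogate variable that of Birc5, and without XX Te GDX mouse 3 the value of Bub1 was -1.67. None of these 5 passed in XY mice, and of the 5 only Kif11 passed the interaction test of the difference between genotypes given above.

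Gonad type in intact mice was associated with 8 members, of which 6 were higher with ovaries and 2 with testes. Among all genes 25.3% were called, with 14.1% higher with ovaries and 11.3% with testes. The share of members called was thus no larger than that of all genes. Cdkn2c (ENSMUSG00000028551), which encodes the CDK4 and CDK6 inhibitor p18, stood out. It lay at 7.01 to 21.2 CPM in Ov Intact mice (median 12.6) and 3.06 to 8.5 CPM in Te Intact mice (median 5.02), with overlap between 7.01 and 8.5 CPM. The difference was 2.82-fold (log2 1.49 ± 0.17, adjusted p 7.12e-09). After GDX the levels met, at 5.8 to 10.8 CPM in Ov GDX and 5.04 to 8.95 CPM in Te GDX mice. Cdkn2c fell by 1.13 ± 0.17 after ovariectomy (-0.47 with 1 surrogate variable added) and did not pass after castration (0.05 ± 0.17), and the 2 effects differed by 1.18 ± 0.24 (adjusted p 0.00157).

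Ccnd1, whose product is bound to the kinases that p18 inhibits, was also higher with ovaries. It lay at 24.6 to 97.4 CPM in Ov Intact mice (median 38.6) and 12.5 to 34.6 CPM in Te Intact mice (median 18.8), with overlap (log2 1.0 ± 0.18, adjusted p 3.66e-05). Ccnb1 (0.70 ± 0.27), Ccne2 (0.61 ± 0.22), Pcna (0.49 ± 0.15) and Birc5 (0.43 ± 0.14) were higher with ovaries, and E2f1 (0.47 ± 0.12) and Ccne1 (0.41 ± 0.15) with testes. The calls of Ccnb1, Ccne2, Ccne1, Pcna and Birc5 were lost in 29, 11, 12, 2 and 3 of the 48 fits that left out 1 mouse. Those of Ccnb1, Ccne2, Pcna and Birc5 were also lost with the compared groups alone, those of Ccne2, Pcna (0.19) and Birc5 with 1 surrogate variable, and those of Ccne1, Ccne2, Ccnb1 and Birc5 with no filter beyond 1 count. Pcna was lost without XX Ov Intact mouse 6 or XY Ov Intact mouse 6, and Birc5 without XX Ov Intact mouse 2, XY Ov Intact mouse 6 or XX Te Intact mouse 6. Mki67 did not pass (0.12 ± 0.27), and all 11 genes of mitosis had values above 0, of which Birc5 was called. Markers of other cells moved with gonad type too, with 6 of 9 lymphocyte and 4 of 8 Kupffer cell and macrophage markers higher with ovaries and the lymphocyte gene Cd4 higher with testes (log2 0.88 ± 0.28), and their part was not tested.

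In GDX mice the former gonad was not associated with any member. None of 34 members and 0.0908% of all genes were called (edgeR's quasi-likelihood test, with 2 members at an unadjusted p under 0.05 and 0 by DESeq2). The log2 values of Ov GDX over Te GDX were 0.05 ± 0.27 for Mki67, 0.32 ± 0.17 for Cdkn2c and 0.41 ± 0.17 for Ccnd1.

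Further genes of the cell cycle were read from lists that were not part of the 34, and their counts stand beside 14.8% of all genes higher in XY GDX and 19.5% higher in XX GDX mice. In XY GDX livers 33 of 45 genes of mitosis and the kinetochore were higher and 3 were lower, with a median of 0.95 on the log2 scale. They included the kinetochore gene Ndc80 (1.99 ± 0.30) and the cytokinesis kinesin Kif23 (1.98 ± 0.24), while Spc24 (0.49 ± 0.12) and Cenpm (0.78 ± 0.29) were higher in XX GDX. Of 28 further S-phase genes, 9 were higher in XY GDX, among them Uhrf1 (1.42 ± 0.29), which maintains DNA methylation, and Cdc7 (1.14 ± 0.21), and 1 was lower (Dut, 0.33 ± 0.12 higher in XX GDX). Of 10 further G1 cyclins, CDKs and inhibitors 5 were higher in XY GDX. The D-type cyclin gene Ccnd2 was 8.97-fold higher (log2 3.17 ± 0.23, adjusted p 4.97e-15) and was also higher in XY Intact livers (1.76 ± 0.22). The largest fitted difference in that list was that of Cdkn2a, placed there among the inhibitors. Counts per gene do not separate its transcripts. It had 0 to 4 reads in XX GDX mice (median 1, at or below the floor in most) and 6 to 93 reads in XY GDX mice (median 36.5), with no overlap. Its log2 difference of 4.71 ± 0.41 (adjusted p 7.3e-13) rests on these few XX reads and is no measure of a fold. Cdkn2a was also called in intact mice (1.91 ± 0.38, with 0 to 8 reads in XX and 2 to 32 in XY) and in the interaction with GDX (larger in GDX mice by 2.81 ± 0.63, adjusted p 0.0154).

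The factors that control the program moved less evenly. Of 16 E2F, RB and DREAM genes 4 were higher and 1 was lower in XY GDX, with E2f2 (1.55 ± 0.21) and Rb1 (0.83 ± 0.09) highest. Of 15 p53 targets 2 were higher (Phlda3 and Btg2) and 4 lower in XY GDX, shares near those of all genes. In intact mice the 5 lists had 2 of 45, 1 of 28, 4 of 10, 2 of 16 and 0 of 15 genes called, all of them higher in XY (edgeR's quasi-likelihood test, with 3 p53 targets at an unadjusted p under 0.05).

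To see which members vary with Mki67 from mouse to mouse, correlations were computed within groups, after subtraction of the group mean from log2 CPM, in 24 intact and 24 GDX mice. In GDX mice 17 of the 33 other members correlated with Mki67, all positively, and in intact mice 23 of 33, of which 18 positively (permutation test within groups, adjusted over 86 relations). The highest values in GDX mice were those of Top2a (Pearson's r 0.90, Spearman's rho 0.87, adjusted permutation p 0.00034 and 0.00043), Ccna2 (r 0.84, rho 0.85) and Mcm3 (r 0.83, rho 0.77). Without the 2 mice farthest from the median of Mki67, r was 0.85, 0.85 and 0.79. In intact mice Bub1b (r 0.86, rho 0.92), Mcm2 (r 0.85, rho 0.85) and Foxm1 (r 0.83, rho 0.82) were highest, and r was 0.80, 0.85 and 0.76 without the 2 farthest mice.

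A second set of members ran the other way in intact mice. Ccne2 (r -0.74, rho -0.60), Pcna (r -0.60, rho -0.54), Rrm2 (r -0.56, rho -0.49), Cdkn2c (r -0.56, rho -0.50) and Tyms (r -0.51, rho -0.49) were lower in mice with more Mki67, with adjusted permutation p-values of r between 0.0026 and 0.037 and of rho between 0.021 and 0.057, and Rrm2 and Tyms did not pass by rho. Without the 2 farthest mice the values were -0.59, -0.48, -0.46, -0.42 and -0.41. With library totals in place of TMM they were -0.70, -0.50, -0.41, -0.43 and -0.31. None of these 5 had a called correlation in GDX mice (r between -0.31 and 0.49).

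**Figure D5:**
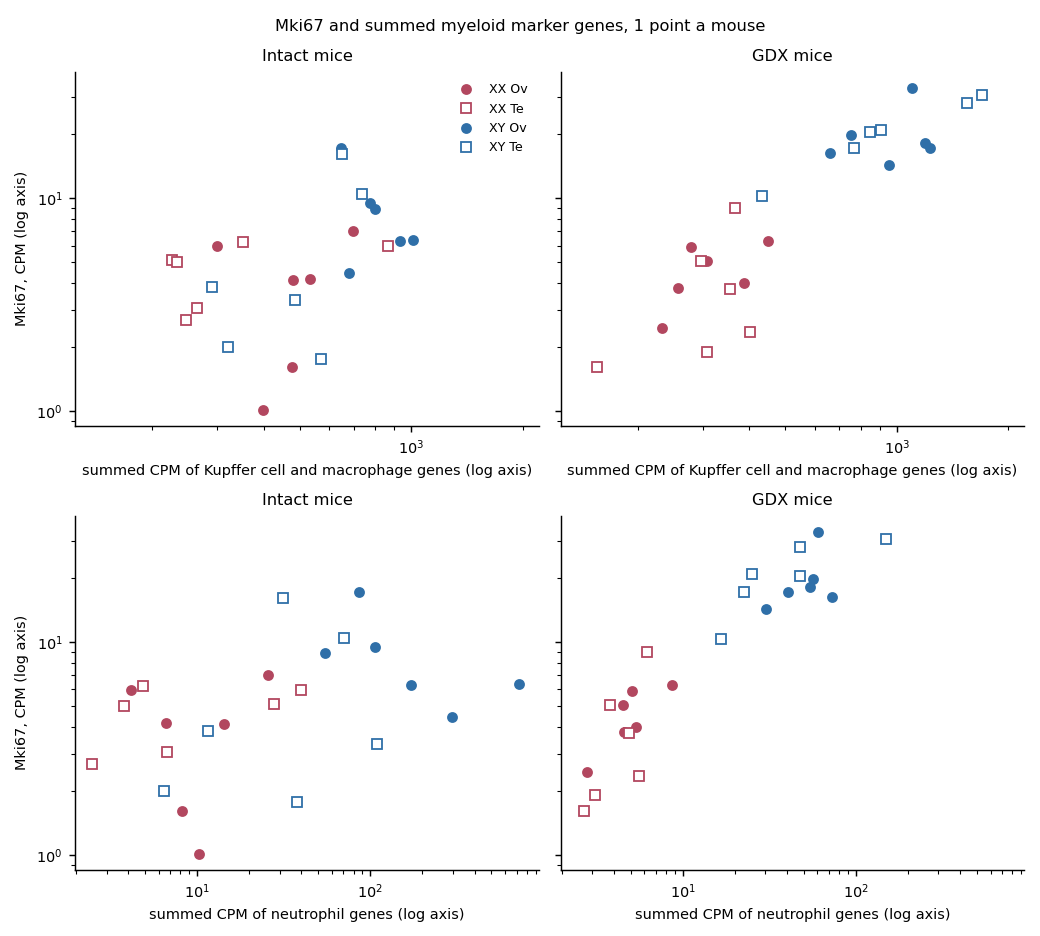
Mki67 in CPM (y axis, log scale) against the summed CPM (x axis, log scale) of Kupffer cell and macrophage markers (upper row) and neutrophil markers (lower row), with 1 point per mouse, intact mice left and GDX mice right, XX red and XY blue, Ov filled circles and Te open squares. In GDX mice the XX points lie low on both axes (Mki67 up to 9 CPM) and the XY points high (Mki67 from 10.3 CPM), and in intact mice the genotypes overlap.

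Mki67 was also set against the summed markers of each cell type inside the groups. In GDX mice it correlated with lipid-associated macrophage markers (r 0.76, rho 0.68, adjusted permutation p 0.0019 and 0.0097), stellate cell markers (r 0.73, rho 0.60), neutrophil markers (r 0.59, rho 0.61), cholangiocyte markers (r 0.59, rho 0.47) and Kupffer cell and macrophage markers (r 0.54, rho 0.46), of which the cholangiocyte and Kupffer cell markers did not pass by rho (adjusted permutation p 0.08 and 0.06). Without the 2 farthest mice these were 0.62, 0.63, 0.58, 0.46 and 0.49. The lipid-associated macrophage sum was led by Spp1 in XX GDX mice (median 54 CPM, Itgax 3.69). In XY GDX mice it was led by Itgax (median 95 CPM, Spp1 25), so its r joins different genes in the 2 genotypes. In intact mice sinusoidal endothelial markers alone had a called r (r 0.51, rho 0.49, adjusted permutation p 0.026 and 0.046, and r 0.38 without the 2 farthest mice), and the values for Kupffer cell and neutrophil markers were 0.07 and 0.06. Hepatocyte markers had r of -0.14 in GDX and -0.30 in intact mice, and neither was called.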

How the data were processed

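RNA was extracted from the livers of 48 mice and sequenced as poly(A)-selected libraries (KAPA mRNA HyperPrep), 1 library per mouse. The authors aligned the reads with STAR 2.7.10a to GRCm39 and deposited whole-number counts per gene for each mouse, and their notes also name DESeq2 1.36.0. The annotation release and the strand setting are not given in the sources used here. The 4 summary lines in each file were left out of library sizes and tests. Of 55414 gene identifiers 31020 (56%) had a symbol in the reference tables, and 225 of 229 listed genes matched, 4 of them by an older symbol.

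Groups were taken from the genotype and treatment labels. Replicate numbers only name mice. Counts were scaled by TMM, filtered with filterByExpr (15414 genes left) and tested with edgeR 4.0.16 (quasi-likelihood, robust, 8 group means, all 48 mice) in R 4.3.3, with p-values adjusted over the 15414 genes by Benjamini-Hochberg and a threshold of 0.05. Values in CPM use the total count on genes. On simulated data for the comparison of XX with XY GDX mice (15028 genes), 74 of 96 genes changed by 0.75 on the log2 scale and 93 of 98 changed by 1.5 were recovered, with 10 false calls. The 120 pairs of mice within groups all differed by more than counting noise (chi-square per gene 8.57 to 342). Correlations used 100000 permutations within groups and a pseudocount of 0.5 reads, and the smallest p they can give is 1e-05.

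The members and the gene lists were chosen with earlier results of these data known. All 34 members are named. Genes of other lists were named as the up to 2 highest and up to 2 lowest log2 fold changes among called genes of a list, and genes named outside this rule were chosen after their values were seen. Alternatives were DESeq2 1.42.0 (Wald test, and its size factors), library totals, 2 other filters, 47 mice, each mouse left out, 1 surrogate variable (sva 3.50.0), the compared groups alone and a 150-base promoter window.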

Additional observations from a re-analysis of the deposited data

Results flagged for a closer look

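Within groups of 6 mice, 22 of 272 sets of 6 values, 1 for each gene and group, had a highest or lowest mouse (8.09% of the sets, where chance gives about 1 in 20) apart from the others by Dixon's test, 15 of them in intact and 7 in GDX groups. XY Ov Intact mouse 2 was highest for Mcm5 (5.72 CPM), Mcm6 (10.6), Aurkb (2.17), Bub1b (3.22), Kif11 (5.45) and Kif20a (2.3). XX Ov Intact mouse 4 was highest for Mcm6 (7.88 CPM), Aurka (5.87), Plk1 (1.3) and Kif11 (2.66), and XX Te Intact mouse 1 stood apart for Mcm4 (6.78 CPM) and Rrm2 (5.69). XY Ov GDX mouse 6 was highest for Mki67 (32.9 CPM) and Kif11 (6.37), and XX Te GDX mouse 3 for Bub1 (0.615) and Cdkn2c (8.95).

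Single values stood apart in further mice. They were Pcna in XY Te GDX mouse 1 (33.6 CPM), Rrm2 in XY Ov Intact mouse 4 (16.9), Top2a in XX Ov GDX mouse 4 (4.58), Aurka in XY Te Intact mouse 6 (5.44), Plk1 in XY Te Intact mouse 5 (1.19) and Plk1 in XX Ov GDX mouse 6 (0.602).

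Effects that differed between groups by their own test were those of the sex chromosomes in intact and GDX mice for Ccnd1 (-0.94, XX over XY in GDX minus intact, log2) and Kif11 (-1.05), and those of castration and ovariectomy for E2f1 (-0.59, castration minus ovariectomy) and Cdkn2c (1.18).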

How the results depend on the processing

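No paired analysis was possible because the labels give no replicate numbers that are shared between groups. No result reversed. Of 864 values of called members under other settings 798 kept their call and 66 lost it, 32 of these with 1 surrogate variable and 16 with library totals, and of 7152 values with 1 mouse left out 237 lost it. The cause was not tested. In intact mice the XX to XY comparison called 0 members with 47 mice, the compared groups alone, at least 10 counts in every mouse, no filter beyond 1 count, library totals and Te Intact mice alone, 2 in Ov Intact mice alone, 3 by DESeq2 and 4 with 1 surrogate variable, and 819 (groups alone), 940 (10 counts), 2618 (surrogate) and 324 (Te Intact) genes against 1648. In GDX mice it called 11 members with at least 10 counts, where 21 could be tested, and 13 in Ov GDX mice alone, and 3491 (10 counts), 2941 (Ov GDX) and 2986 (Te GDX) genes against 5288. With library totals 787 genes were higher in XX GDX and 3411 in XY GDX mice, against 3001 and 2287 with TMM. With no filter beyond 1 count these were 1375 and 3032 of 35860 genes, and by DESeq2 2539 and 2537. The direction of the all-gene balance beside the member counts therefore depended on scaling and filter. Over all mice 10 members were called with at least 10 counts. The gonadal effect had 4 members with the groups alone or no filter, and 1693 genes with the groups alone against 3907. The interaction had 4 members and 661 genes by DESeq2 and 545 genes with library totals, against 327. Castration called 9 members with at least 10 counts, and ovariectomy 6838 genes with 1 surrogate variable against 10695. Castration minus ovariectomy had 1 member with no filter or library totals, and 506 genes with no filter against 863. The former gonad had 33 (groups alone), 25 (DESeq2) and 7 (10 counts) genes against 14.

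With 1 mouse left out, members called ranged from 4 to 9 (gonadal), 18 to 22 (chromosomal), 0 to 4 (chromosomal, intact), 20 to 22 (chromosomal, GDX), 1 to 6 (interaction), 14 to 19 (ovariectomy), 13 to 19 (castration) and 1 to 3 (castration minus ovariectomy), and genes from 115 to 748 (interaction) and from 660 to 1859 (castration minus ovariectomy). In 150-base promoter windows the shares with CCAAT, CHR and E2F-type letters were 63.3%, 20% and 30% of member windows and 24.5%, 9.7% and 5.16% of all windows. Splits by gonad type or sex chromosomes were added after seeing the data. Members with a median under 16 reads were limited by depth.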
